A study of Mus musculus with 9 samples.

Results

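Early signalled CD4 thymocytes were chosen by RNA counts: they are the cells of the CD4 single-positive (CD4 SP) gate that held at least 2 unique molecular identifiers (UMIs, each standing for 1 captured RNA molecule) of Egr2 and Egr3 together, fewer than 3 UMIs summed over Nr4a3, Tnfrsf9, Tnfrsf4, Xcl1, Gadd45b and Bcl2a1b, and no UMI of Foxp3. Of 5773 CD4 SP cells with a genotype, 287 met this rule, 126 of CD3ε I173A mice and 161 of wild-type (WT) mice, and the cells of both genotypes in all gates numbered 16884. The 6 genes of the second criterion are strongly induced in thymocytes under agonist signalling and are called the agonist genes here, and Foxp3 marks regulatory T cells. These values chose the cells, so the levels of the 9 genes in the rule are given as a description and support nothing.

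Thymocytes came from adult female mice, either carrying the I173A substitution in CD3ε or WT, and the 2 genotypes were told apart by antibodies with oligonucleotide tags (hashtags). After sorting into CD4 SP, CD8 SP and CD4 CD8 double-positive (DP) gates, 5′ single-cell RNA libraries were made on the 10x platform, and each library mixed both genotypes of 1 gate. The substitution is in a signalling chain of the T cell receptor (TCR) complex and was studied as one that enhances TCR signals. The labels do not say how many mice were used, and a genotype in a gate is 1 sample. There is therefore no replicate check and no test, and every interval covers counting error only.

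EGR2 and EGR3 are zinc finger transcription factors whose genes are switched on within a short time of TCR engagement through the Ras and MAP kinase pathway and calcineurin. In the thymus they follow positive selection, in which a TCR that binds self peptide on an MHC molecule gives its cell a survival signal, and they are known to induce Id3 and to be held in check by the corepressors NAB1 and NAB2. Stronger or longer signals add the agonist genes, which accompany deletion or diversion into the regulatory T cell lineage, and cells that have passed selection later lose the signal, gain the factor KLF2 and its target, the egress receptor S1PR1, and leave the thymus.

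The tags that assigned the genotype are shown because every comparison between I173A and WT cells rests on them.
Hashtag 6, I173A: tatgctgccacggta
Hashtag 4, WT: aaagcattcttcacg

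The promoter windows of 3 genes follow because the rule or the ratios below turn on them, Egr2 as the main gene of the rule, and Zfp36 and Nr4a1 as genes named below as higher in the signalled cells. They are RefSeq windows of GRCm38.p6, each running from 250 bases before to 50 after an annotated start and written on the gene's own strand. Capitals mark a CArG box, the site of serum response factor, in Egr2 and Zfp36, and the letters TGCGTCA in Nr4a1.
Egr2, first start, chr10:67537316-67537615, plus strand: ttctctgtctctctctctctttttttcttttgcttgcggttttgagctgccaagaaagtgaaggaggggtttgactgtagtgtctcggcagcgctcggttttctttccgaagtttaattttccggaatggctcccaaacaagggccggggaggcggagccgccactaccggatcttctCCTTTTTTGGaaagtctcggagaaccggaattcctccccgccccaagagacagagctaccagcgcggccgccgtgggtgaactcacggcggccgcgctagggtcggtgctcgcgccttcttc
Egr2, second start, chr10:67537619-67537918, plus strand: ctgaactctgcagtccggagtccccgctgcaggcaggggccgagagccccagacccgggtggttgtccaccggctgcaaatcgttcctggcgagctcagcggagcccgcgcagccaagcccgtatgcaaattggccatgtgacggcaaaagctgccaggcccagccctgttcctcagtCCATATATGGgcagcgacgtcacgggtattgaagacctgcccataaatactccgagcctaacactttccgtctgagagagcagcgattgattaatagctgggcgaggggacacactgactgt
Zfp36, chr7:28379179-28379478, minus strand: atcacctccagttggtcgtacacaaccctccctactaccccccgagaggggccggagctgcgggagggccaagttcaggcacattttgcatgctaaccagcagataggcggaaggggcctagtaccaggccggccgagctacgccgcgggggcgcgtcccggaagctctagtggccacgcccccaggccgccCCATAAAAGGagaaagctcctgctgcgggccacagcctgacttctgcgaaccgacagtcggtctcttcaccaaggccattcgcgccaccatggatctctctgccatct
Nr4a1, chr15:101266596-101266895, plus strand: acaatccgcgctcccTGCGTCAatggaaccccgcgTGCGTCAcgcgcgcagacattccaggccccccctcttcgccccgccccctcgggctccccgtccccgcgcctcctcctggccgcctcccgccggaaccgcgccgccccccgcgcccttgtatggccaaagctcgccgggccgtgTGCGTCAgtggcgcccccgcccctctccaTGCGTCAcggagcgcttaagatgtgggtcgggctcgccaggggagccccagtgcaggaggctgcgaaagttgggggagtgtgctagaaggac

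Of the 5 Egr2 windows in the table, 4 held a CArG box, and in both windows shown it began 72 bases before the start. In Zfp36 it began 58 bases before the start, and the matches in Nr4a1 at 235, 215, 71 and 42 bases before. Both strands were searched, and no window shown held both motifs. A CArG box was present in 535 of all 32851 windows (1.63%) and TGCGTCA in 695 (2.12%). Among the 12 genes named as higher in the signalled cells, 8 had a window, of which 1 (Zfp36) held a CArG box and 1 (Nr4a1) held TGCGTCA, with 4 matches. The letters GCGTGGGCG, a binding sequence of EGR factors, were in 0.612% of all windows and TGACGTCA, the cyclic AMP response element, in 1.79%, and neither was in any window of those 8 genes or of Egr2. Egr3, Egr1 and Cd69 are not shown. A match describes letters in a window and says nothing of binding in these cells.

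The CD4 RNA library held 9081 barcodes and 60770018 UMIs, of which 381 barcodes (4.20%) carried several hashtags and were left out as doublets. Doublets of 1 genotype could not be seen this way. The signalled cells had a median of 5708.5 UMIs in I173A and 6524 in WT, and the other CD4 SP cells 5787.5 in I173A and 6041.5 in WT, so that among the signalled cells the I173A cells were the shallower ones. CD4 shared 124 barcodes with the CD8 library and 109 with the DP library, and 3 signalled cells were among each.

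Egr2 carried most of the rule. Egr2 without Egr3 was seen in 231 of the signalled cells, both genes in 53 and Egr3 without Egr2 in 3. The sum of the 2 genes was 2 UMIs in 105 cells, 3 in 54, 4 in 43 and 5 or more in 85, with a highest value of 38 in a WT cell. Just outside the threshold stood 200 cells with 1 UMI of Egr2 or Egr3 that met the other criteria. Their Egr2 level was 138 counts per 1000000 UMIs (CPM), against 284 CPM in the signalled cells with 2 UMIs and 964 CPM in those with 5 or more. On the side of the agonist genes, 196 signalled cells had none of their UMIs and 91 had 1 or 2, and 74 cells with the Egr2 and Egr3 UMIs but 3 or more agonist UMIs stood outside and are called agonist-rich.

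The label was set against markers that the rule did not use. Egr1, Irf4 and Cd69, the 3 further markers given for these cells, were all above their levels in the other CD4 SP cells, as given below. Cd4 was at 391 CPM in the signalled cells and 381 CPM in the other CD4 SP cells, and Zbtb7b, the factor of the CD4 lineage, at 117 and 102 CPM. Rag1, Rag2 and Ptcra of DP cells were at 0 in the signalled cells, and the 6 DP markers summed to 31.2 CPM there, against 62.4 CPM in the other CD4 SP cells. Zbtb16, Klrb1c and Tbx21 of invariant NKT cells were also at 0, and that list of 5 summed to 27.8 CPM, against 79.7 CPM. H2-Aa, H2-Ab1, Itgax, Csf1r and Tyrobp of macrophages and dendritic cells were at 0, with a sum over 9 markers of 110 CPM, against 151 CPM in the other CD4 SP cells. All 4 erythroid markers were at 0 as well. The 5 regulatory T cell markers were not near 0: they summed to 303 CPM in signalled cells (357 CPM in I173A and 266 CPM in WT), against 328 CPM in the other CD4 SP cells. The sum hides members that went opposite ways. Ikzf2 (ratio of signalled to other cells 0.199) and Il2ra (0.0384) were lower, and Izumo1r was higher. Ctla4 (0.937, 0.697 to 1.24) had an interval that includes 1. The 5 CD8 SP markers summed to 227 CPM, against 368 CPM in the other CD4 SP cells. The part of these cells in the results was not tested. The word early in the label is a name, since no time was measured.

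The share of CD4 SP cells that met the rule did not differ between genotypes beyond counting error. It was 4.73% in I173A (126 of 2664, exact Clopper-Pearson 95% interval 3.96 to 5.61%) and 5.18% in WT (161 of 3109, 4.43 to 6.02%), a ratio of 0.913 with an exact conditional 95% interval of 0.718 to 1.16. Since a rule on UMIs depends on depth, each cell was also thinned to 3000 UMIs, which left out 171 I173A and 220 WT cells. The share was then 3.13% in I173A and 3.08% in WT, a ratio of 1.02 (0.740 to 1.39). Thinned to 1500 UMIs instead, it was 0.914% in I173A and 1.37% in WT, a ratio of 0.666 (0.386 to 1.13). Agonist-rich cells were 37 in each genotype, 1.39% of I173A and 1.19% of WT cells. Cells with 5 or more Egr2 and Egr3 UMIs made up 1.24% of I173A cells (33) and 1.67% of WT cells (52), a ratio of 0.741 (0.464 to 1.17). The intervals of all these ratios include 1, and they leave room for differences of the sizes they span.

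The same rule found fewer cells in the other gates. In the CD8 SP gate it was met by 83 of 2872 I173A cells (2.89%) and 81 of 3017 WT cells (2.68%), and in the DP gate by 33 of 2706 (1.22%) and 26 of 2516 (1.03%). The ratios of I173A to WT were 1.08 (0.783 to 1.48) and 1.18 (0.685 to 2.05). DP cells were the shallowest, with a median of 2808 UMIs outside the rule. After thinning every cell to 1500 UMIs the shares over both genotypes were 1.16% for CD4 SP, 0.780% for CD8 SP and 0.497% for DP, the same order.

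In the signalled cells Egr1, Cd69, Nr4a1, Fos and Ier2, all induced early after TCR engagement, stood well above the other CD4 SP cells, in both genotypes. Bcl2, Ccr9, Itm2a, Gata3 and Cd40lg were higher too, while Klf2, S1pr1, Tsc22d3 and Ddit4 were lower. Of 6364 genes with a mean of at least 20 CPM, 140 (2.2%) were at least 1.5-fold higher in the signalled cells and 108 (1.7%) at least 1.5-fold lower, and the median gene was 0.01 higher on the log2 scale. The rule itself chose cells by Egr2 and Egr3, so genes that accompany them were chosen with them.

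Egr1, another EGR factor gene and not in the rule, was at 1655 CPM in I173A and 1899 CPM in WT signalled cells, and at 148 CPM in I173A and 137 CPM in WT other CD4 SP cells. All signalled values were above all others, and over both genotypes the ratio of signalled to other CD4 SP cells was 12.7 (12.1 to 13.2). Fos, which pairs with Jun in the AP-1 factor, was at 66.4 CPM in signalled cells and 10.2 CPM in other CD4 SP cells, a ratio of 6.53 (5.31 to 7.98). Jun was at 25.8 and 31.3 CPM (ratio 0.824, 0.611 to 1.09), so the 2 partners did not go together. The early response genes Ier2 (564 CPM against 199 CPM, ratio 2.83) and Zfp36, which encodes an mRNA decay factor (674 CPM against 226 CPM, ratio 2.98), were both higher. The immediate early list as a whole was split, with 7 of 12 genes higher and 5 lower, 5 past 1.5-fold higher and 1 lower, and a median log2 ratio of 0.22. Klf10 (ratio 0.467), Jund (0.716) and Ier5 (0.762) were its lowest genes.

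Cd69 encodes a surface protein that holds activated cells in the tissue by blocking S1PR1. It was at 613 CPM in I173A and 616 CPM in WT signalled cells, and at 133 CPM in I173A and 136 CPM in WT other CD4 SP cells, a ratio of signalled to other cells of 4.56 (4.28 to 4.86). Irf4, the gene of a factor graded by TCR signal strength, was at 92.7 CPM in signalled and 23.0 CPM in other cells, a ratio of 4.03 (3.42 to 4.73). Plk3, a kinase gene of the stress response, had a ratio of 4.80. Myc, which encodes a transcription factor of growth in activated cells, had one of 2.65. Dusp6, whose product switches off the MAP kinase ERK, was at 111 CPM in signalled and 37.3 CPM in other cells, a ratio of 2.96 (2.56 to 3.42). With every cell thinned to 3000 UMIs, Cd69 was seen in 70.3% of signalled and 21.6% of other CD4 SP cells (85.4% and 32.2% unthinned), and Egr1 in 92.5% and 16.3% (95.8% and 21.6% unthinned). Irf4 was seen in 20.1% of signalled and 4.76% of other cells after thinning (24.04% and 8.42% unthinned). Fos was seen in 12.5% and 2.31% (22.3% and 4.52% unthinned), and Nr4a1 in 39.8% and 10.99% (48.4% and 14.04% unthinned). Most signalled cells thus held no UMI of Irf4, and the same was true of Fos and of Nr4a1. Cd8a, which cells of a CD4 SP gate should lack, was seen in 3.58% of signalled and 4.41% of other cells after thinning. Unthinned, at median depths of 6311 and 5923.5 UMIs, the shares were 6.27% and 6.94%.

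**Figure D1:**
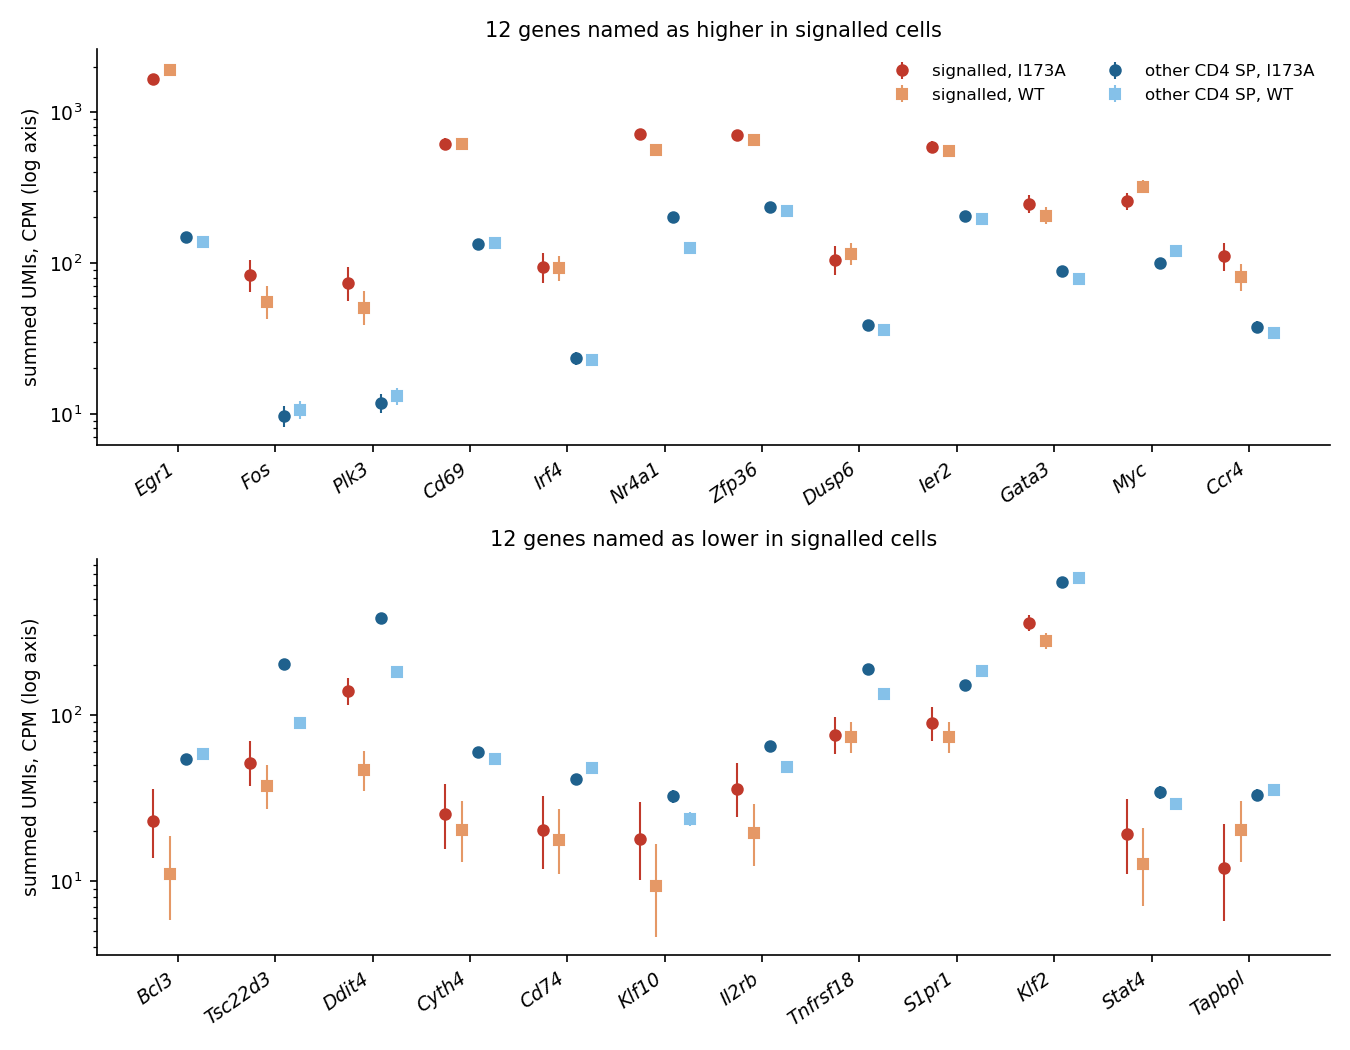
Levels of the 12 genes named as higher (upper panel) and the 12 named as lower (lower panel) in signalled cells, as summed UMIs in CPM on a log axis, for signalled I173A, signalled WT, other CD4 SP I173A and other CD4 SP WT cells; bars are exact Poisson 95% intervals. Each gene is to be read across its own 4 points and not against other genes; Egr1 lies at 1655 and 1899 CPM in signalled cells, against 148 and 137 CPM in the other cells.

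The genes tied to EGR factors followed in part. Nab2 was at 235 CPM in signalled and 126 CPM in other CD4 SP cells, a ratio of 1.86 (1.69 to 2.05), while Nab1 was at 101 and 92.9 CPM (1.08, 0.936 to 1.25). Id3, which encodes an inhibitor of E proteins, was at 611 CPM in signalled and 342 CPM in other cells (1.79, 1.69 to 1.90). Of the 10 genes of the EGR list outside the rule that reached 20 CPM, 8 were higher and 2 lower, 4 of them past 1.5-fold higher, with a median log2 ratio of 0.30. Cblb, a ubiquitin ligase gene of T cell anergy, was the lowest, at 50.6 CPM in signalled and 70.0 CPM in other cells.

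Negative feedback on MAP kinase signalling was represented by several dual specificity phosphatases. Dusp2 was at 521 CPM in signalled and 256 CPM in other CD4 SP cells (2.03) and Dusp5 at 146 and 75.7 CPM (1.93). Dusp10, which acts on stress kinases, was the other way, at 90.2 and 131 CPM (0.690). In this list 9 of 11 genes were higher, 4 past 1.5-fold, and the median log2 ratio was 0.37. Genes of the TCR complex and of its nearest kinases showed little: 14 of 22 were higher and 8 lower, 1 past 1.5-fold, with a median of 0.05. Cd3e, the gene of the substituted chain, was at 1429 CPM in signalled and 1386 CPM in other cells.

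The NF-κB and NFAT list split, with 6 of 15 genes higher and 9 lower and a median log2 ratio of -0.05. Nfkbid, which encodes a nuclear IκB protein, was at 167 CPM in signalled and 66.5 CPM in other CD4 SP cells, and Nfkbiz had a ratio of 2.44. Bcl3, another IκB family gene, was at 15.9 and 56.1 CPM (0.283, 0.193 to 0.401), and Nfkb2 and Relb of the noncanonical arm had ratios of 0.578 and 0.621. The other CD4 SP cells include the agonist-rich and the Foxp3-positive cells, which the rule removes. Set against 4266 cells with no Egr2 or Egr3 UMI that met the remaining criteria, Bcl3 had a ratio of 0.364, but Nfkb2 one of 0.868 (0.627 to 1.17) and Relb one of 0.899 (0.694 to 1.15), both with intervals that include 1. Tnfrsf18, which encodes the costimulator GITR, was at 0.472 against all other cells and 0.700 against these. Ikzf2, which encodes the regulatory T cell factor Helios, was at 0.199 and 0.663, and Il2ra, which encodes the IL-2 receptor α chain, had 1 UMI in all signalled cells. One I173A cell held 45.2% of the Ikzf2 UMIs of the signalled cells.

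Genes of cells that have just passed positive selection were mostly higher. Itm2a, a membrane protein gene of newly selected thymocytes, was at 2728 CPM in signalled and 1304 CPM in other CD4 SP cells (2.09, 2.03 to 2.15). Ccr9, a chemokine receptor gene of DP and young SP cells, was at 462 and 240 CPM (1.93), and Ccr4, which guides newly selected CD4 cells to the medulla, at 93.2 and 36.1 CPM (2.58, 2.20 to 3.01). Of the 12 genes of this list that entered, 10 were higher and 2 lower, 4 past 1.5-fold, with a median log2 ratio of 0.39. Cd24a, whose loss marks maturation, had a ratio of 1.31 and Sox4 one of 0.891.

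The list of maturation and egress genes went the other way, with 22 of 24 genes lower, 4 of them past 1.5-fold, and a median log2 ratio of -0.31. Klf2 was at 358 CPM in I173A and 277 CPM in WT signalled cells, against 627 CPM in I173A and 663 CPM in WT other cells, a ratio over both genotypes of 0.480 (0.442 to 0.519). S1pr1 was at 79.8 CPM in signalled and 168 CPM in other cells (0.474, 0.403 to 0.555), and Klf3 had a ratio of 0.512. Ccr7, the receptor that draws SP cells into the medulla, was closer, at 543 and 699 CPM (0.776, 0.730 to 0.825). The 2 genes that were higher were Il7r (1.25) and St3gal6 (1.54), which encode the IL-7 receptor α chain and a sialyltransferase.

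Genes of the CD4 lineage were higher in 9 of 10 cases, 3 past 1.5-fold, with a median log2 ratio of 0.35. Gata3, which is needed for CD4 cells, was at 245 CPM in I173A and 206 CPM in WT signalled cells, against 88.0 and 78.8 CPM in I173A and WT other cells, a ratio over both genotypes of 2.68 (2.42 to 2.96). Cd40lg, the helper ligand gene, had a ratio of 1.95 and Tox, a factor required for CD4 lineage development, one of 1.62. All 5 CD8 lineage genes that entered were lower, 4 past 1.5-fold, among them Cd8b1 at 51.6 CPM in signalled and 87.8 CPM in other cells (0.587) and Runx3 at 0.549. The share of cells with Cd8b1 was alike, 16.8% of signalled and 16.9% of other cells after thinning to 3000 UMIs (26.8% and 26.6% unthinned). Its lower CPM therefore does not mean that fewer signalled cells held Cd8b1.

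Bcl2, the survival gene, was at 551 CPM in I173A and 514 CPM in WT signalled cells, against 265 CPM in I173A and 251 CPM in WT other cells. Both signalled values were above both others, and the ratio over both genotypes was 2.06 (1.93 to 2.19). Bcl2l11, which encodes the death protein BIM, had a ratio of 0.621 against all other CD4 SP cells and of 1.01 (0.782 to 1.30) against the cells with no Egr2 or Egr3 UMI. Pdcd1, which encodes the inhibitory receptor PD-1, was at 53.1 CPM in signalled and 23.2 CPM in other cells (2.29, 1.86 to 2.81), and Lag3 had 2 UMIs in all signalled cells. Of 12 survival and death genes, 4 were higher and 8 lower, with a median log2 ratio of -0.05.

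Tsc22d3, which encodes the glucocorticoid-induced protein GILZ, was at 43.1 CPM in signalled and 141 CPM in other CD4 SP cells (0.307, 0.245 to 0.379), and Ddit4, a stress-induced inhibitor of mTORC1, at 84.8 and 272 CPM (0.311, 0.266 to 0.362). Over the glucocorticoid-linked list 3 of 9 genes were higher and 6 lower, so the 2 genes do not stand for it. Interferon-stimulated genes were lower in 17 of 18 cases, 3 past 1.5-fold, with a median log2 ratio of -0.39, for example Usp18 at 33.7 CPM in signalled and 58.8 CPM in other cells. Sterol and fatty acid synthesis (6 of 9 higher, median 0.15) and fatty acid oxidation, efflux and storage (5 of 14 higher, median -0.01) had no member past 1.5-fold. The same held for glycolysis (10 of 13 higher, median 0.12).

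All 10 mitosis genes that entered were past 1.5-fold higher, with a median log2 ratio of 0.92. These values came from few cells: 12 signalled cells (4.18%) and 181 other CD4 SP cells (3.30%) had 2 or more UMIs of 5 cell cycle genes, and 1 signalled cell held 36.0% of the Cenpf UMIs. With the rule applied after thinning to 3000 UMIs the median was 0.16.

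**Figure D2:**
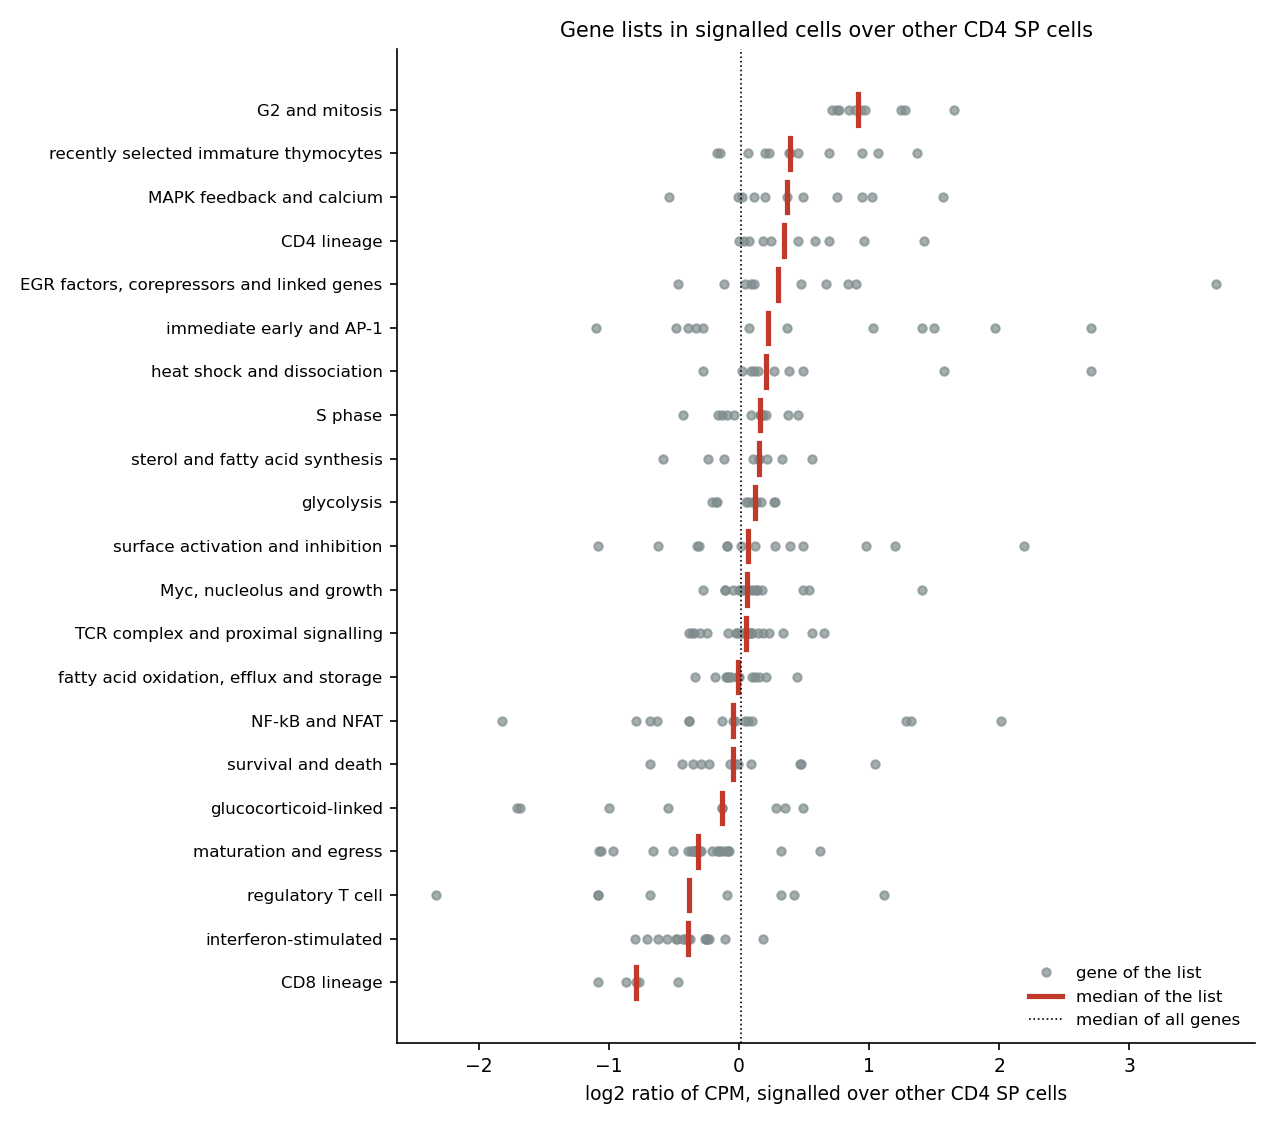
Log2 ratio of CPM, signalled over other CD4 SP cells, for each gene (grey points) of 21 gene lists with at least 4 genes entering, and the median of each list (red bar); the dotted line is the median of all genes. Mitosis genes (median 0.92, from 12 cycling cells) and recently selected genes (0.39) lie to the right, and interferon-stimulated (-0.39) and CD8 lineage genes to the left.

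Within the signalled cells, levels of several genes went with the number of Egr2 and Egr3 UMIs, which is given as a description. Cells with 5 or more had a median of 6844 UMIs and cells with 2 one of 5852, and the part of depth was not tested. Egr1 was at 92.9, 867, 1251, 1670 and 2481 CPM in cells with 0, 1, 2, 3 to 4 and 5 or more UMIs. Nr4a1, which encodes the orphan receptor NUR77 and is a common reporter of TCR signals, was at 50.3, 327, 445, 619 and 814 CPM in the same order, and Cd69 at 91.7, 340, 461, 621 and 767 CPM. These 3 genes had a step at every stratum, whereas Bcl2 (263, 525, 480, 565 and 547 CPM) and Ccr9 (264, 411, 471, 448 and 465 CPM) stepped once, between 0 and 1 UMI. Klf2 was at 712, 383, 339, 312 and 280 CPM and S1pr1 at 192, 101, 87.6, 70.2 and 80.9 CPM, likewise with the largest step at 1 UMI. In these last 4 genes the 200 cells just outside the threshold lay nearer to the signalled cells than to the cells with none. Other genes were also alike in signalled cells and these 200 cells, with intervals that include 1. They were Gata3 (ratio 1.03, 0.885 to 1.20), Dusp6 (1.04, 0.837 to 1.30), Ccr4 (0.853, 0.681 to 1.07), Nab2 (1.01, 0.871 to 1.17) and Id3 (0.994, 0.908 to 1.09). The other genes named as higher, from Fos (3.13) to Plk3 (1.44, 1.03 to 2.03), were higher in the signalled cells.

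**Figure D3:**
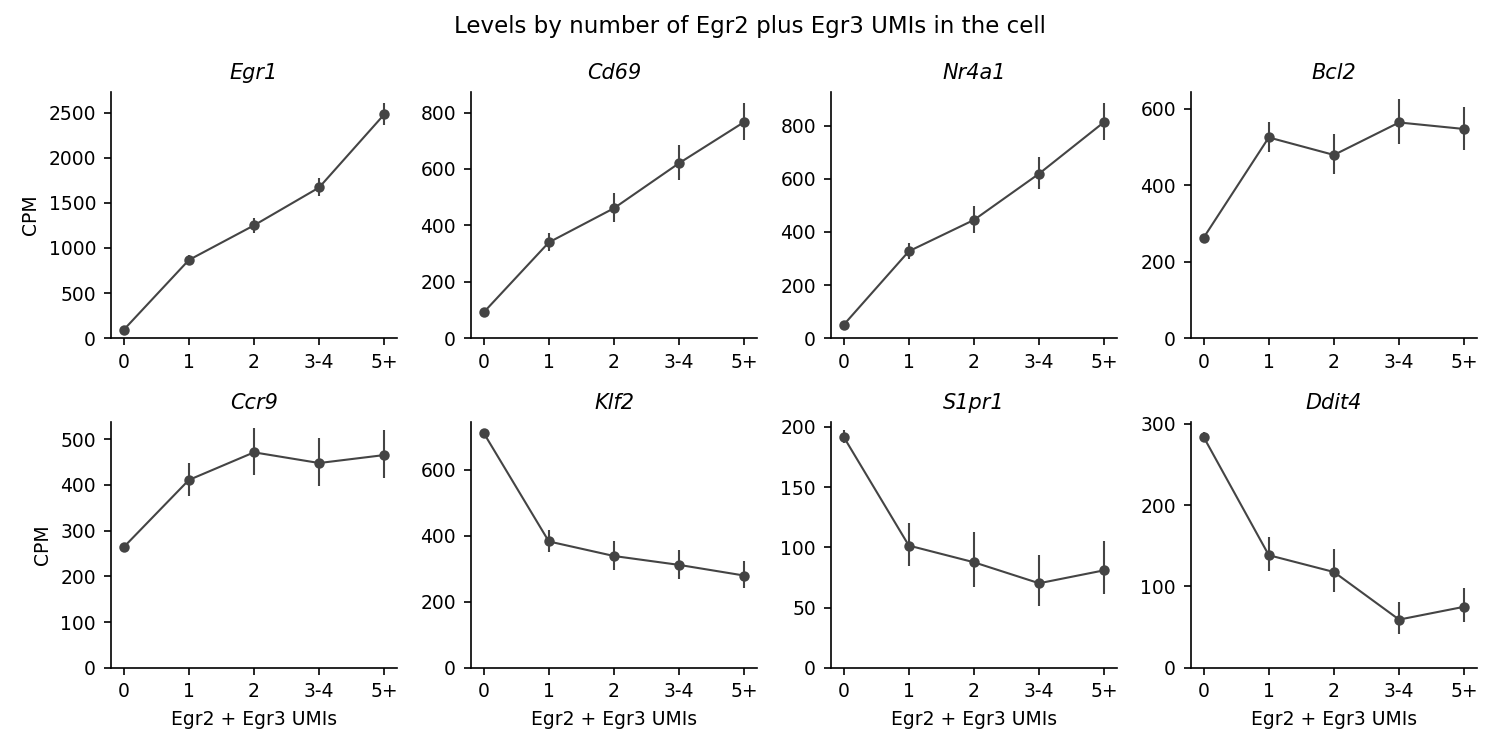
Levels in CPM of 8 genes in CD4 SP cells with 0, 1, 2, 3 to 4 and 5 or more UMIs of Egr2 plus Egr3 that met the other criteria, with exact Poisson 95% intervals; the last 3 strata are the signalled cells. Egr1, Cd69 and Nr4a1 step up at every stratum (Egr1 to 2481 CPM), while Bcl2 and Ccr9 step up and Klf2 and S1pr1 step down mainly between 0 and 1 UMI.

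Between the signalled cells with 5 or more and those with 2 UMIs, 91 of 3467 genes (2.62%) with a mean of at least 50 CPM were at least 1.5-fold higher and 102 (2.94%) at least 1.5-fold lower. All 8 immediate early genes that entered were higher, 3 past 1.5-fold, with a median log2 ratio of 0.36, against -0.03 over all genes. Maturation genes were lower in 17 of 21 cases, with a median of -0.25, and TCR complex genes in 19 of 21, none past 1.5-fold, with a median of -0.10. Cd5, a surface brake whose level reports TCR signal strength, was at 596 CPM in cells with 5 or more and 708 CPM in cells with 2, a ratio of 0.842 (0.736 to 0.962). Nab2, at 244 and 228 CPM, differed by less than counting error (1.07, 0.856 to 1.34).

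The signalled cells were also set beside the 74 agonist-rich cells, which met the same minimum of Egr2 and Egr3 UMIs. The agonist genes split these 2 groups, so genes that accompany them were split with them. All values of this comparison are therefore a description. Here 463 of 6267 genes (7.39%) were at least 1.5-fold higher and 395 (6.3%) at least 1.5-fold lower, over a group of 74 cells with few UMIs per gene. All 16 NF-κB and NFAT genes that entered were lower in the signalled cells, 12 past 1.5-fold, with a median log2 ratio of -1.51. Immediate early genes were lower in 12 of 14 cases (median -0.78). Nr4a1 was at 625 CPM in signalled and 2435 CPM in agonist-rich cells (0.257, 0.238 to 0.277) and Nr4a2, a gene of the same receptor family, at 4.46 and 78.4 CPM, and Cd69 was at 615 and 1039 CPM. Among the markers outside the rule, Egr1, Irf4 and Cd69, only Egr1 was higher in the signalled cells. It was at 1799 CPM in signalled and 1284 CPM in agonist-rich cells (1.40, 1.29 to 1.52), while Irf4 had a ratio of 0.706 (0.539 to 0.933). The rule genes Egr2 (1.499, 1.299 to 1.736) and Egr3 (0.281, 0.208 to 0.381) went opposite ways, which is a description only. Bcl2 (529 and 304 CPM, ratio 1.74), Ccr9 (462 and 181 CPM, 2.55) and Dusp6 (111 and 73.3 CPM, 1.51) were higher in the signalled cells, and Bcl2l11 was lower (34.2 and 133 CPM, 0.257). Maturation genes were higher in 17 of 24 cases.

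Between genotypes, the number of genes past 1.5-fold in signalled cells depended on the minimum CPM, as given in a later section. Ddit4 and Cpt1a were several-fold higher in I173A, with the same direction in the other CD4 SP cells, and Igtp and Gbp9, which encode interferon-inducible GTPases, were lower in I173A. Of 3449 genes with a mean of at least 50 CPM, 67 (1.94%) were at least 1.5-fold higher in I173A and 33 (0.957%) at least 1.5-fold lower. In the much larger group of other CD4 SP cells these were 6 of 3407 (0.176%) and 0 of 3407 (0%). The counts from 126 and 161 cells hold more counting error, and they are not compared with those from the other cells. They also include TCR V segment genes, which depend on the receptors of the cells sampled. Such genes stood at both ends in signalled cells, with Trav14n-3, Trbv12-2 and Trav4-4-dv10 highest and Trbv20 and Trbv15 among the lowest.

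Ddit4 was at 139 CPM in I173A and 46.4 CPM in WT signalled cells, a ratio of 3.00 (2.16 to 4.22), and at 384 and 181 CPM in I173A and WT other CD4 SP cells (2.12, 2.04 to 2.22). Without the cell with most of its UMIs the ratio in signalled cells was 2.75. Cpt1a, which encodes the enzyme that commits fatty acids to mitochondrial oxidation, had 35 UMIs in I173A and 8 in WT signalled cells, 42.0 and 6.75 CPM, a ratio of 6.22 (2.84 to 15.5). Its mean lay under 50 CPM, so that it was not among the genes counted above. The ratio was 4.52 (3.82 to 5.39) in the other CD4 SP cells and 6.56 (2.29 to 25.8) in the CD8 SP cells that met the same rule, so the difference was not limited to signalled CD4 cells. Tsc22d3 had a ratio of 1.39 (0.892 to 2.17) in signalled and 2.28 (2.15 to 2.42) in other CD4 SP cells, and Bbc3, which encodes the death protein PUMA, 0.862 (0.469 to 1.55) and 2.13 (1.82 to 2.51).

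Of the 8 genes named as higher in I173A, Pdcd1 was at 75.7 CPM in I173A and 37.2 CPM in WT signalled cells, a ratio of 2.04 (1.36 to 3.07). One I173A cell held 19.6% of these UMIs, and without it the ratio was 1.40 (0.894 to 2.18). The other named genes were Sugp1 (ratio 2.17), Klhdc2 (1.96), Gstp3 (1.96), Phrf1 (1.94), Lrmp (1.94) and Nck1, which encodes an adaptor of the TCR complex (1.85). Nck1 was at 93.7 CPM in I173A and 50.7 CPM in WT signalled cells, and at 69.0 and 66.8 CPM in the other cells. Sugp1 and Phrf1 likewise had ratios of 1.06 and 1.03 in the other cells.

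The 8 genes named as lower were led by Ifi213, an interferon-inducible gene, at 33.6 CPM in I173A and 71.8 CPM in WT signalled cells (0.469, 0.294 to 0.726) with a ratio of 0.757 (0.703 to 0.815) in the other cells. Igtp, an interferon-inducible GTPase gene, was at 68.5 and 125 CPM (0.548, 0.396 to 0.749), and Gbp9 and Parp14 had ratios of 0.591 and 0.531. Over the interferon-stimulated list 14 of 15 genes were lower in I173A signalled cells, 1 past 1.5-fold, with a median log2 ratio of -0.27, against 0.01 over all genes. In the other CD4 SP cells all 16 that entered were lower, with a median of -0.22. The remaining named genes were Mcm2, a replication licensing gene (0.491), Vps35 (0.525), Klk8 (0.572) and Taf12 (0.580). In the other CD4 SP cells these genes lay nearer to 1, with ratios of 0.907 for Mcm2, 1.02 for Vps35, 0.930 for Klk8 and 1.01 for Taf12.

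**Figure D4:**
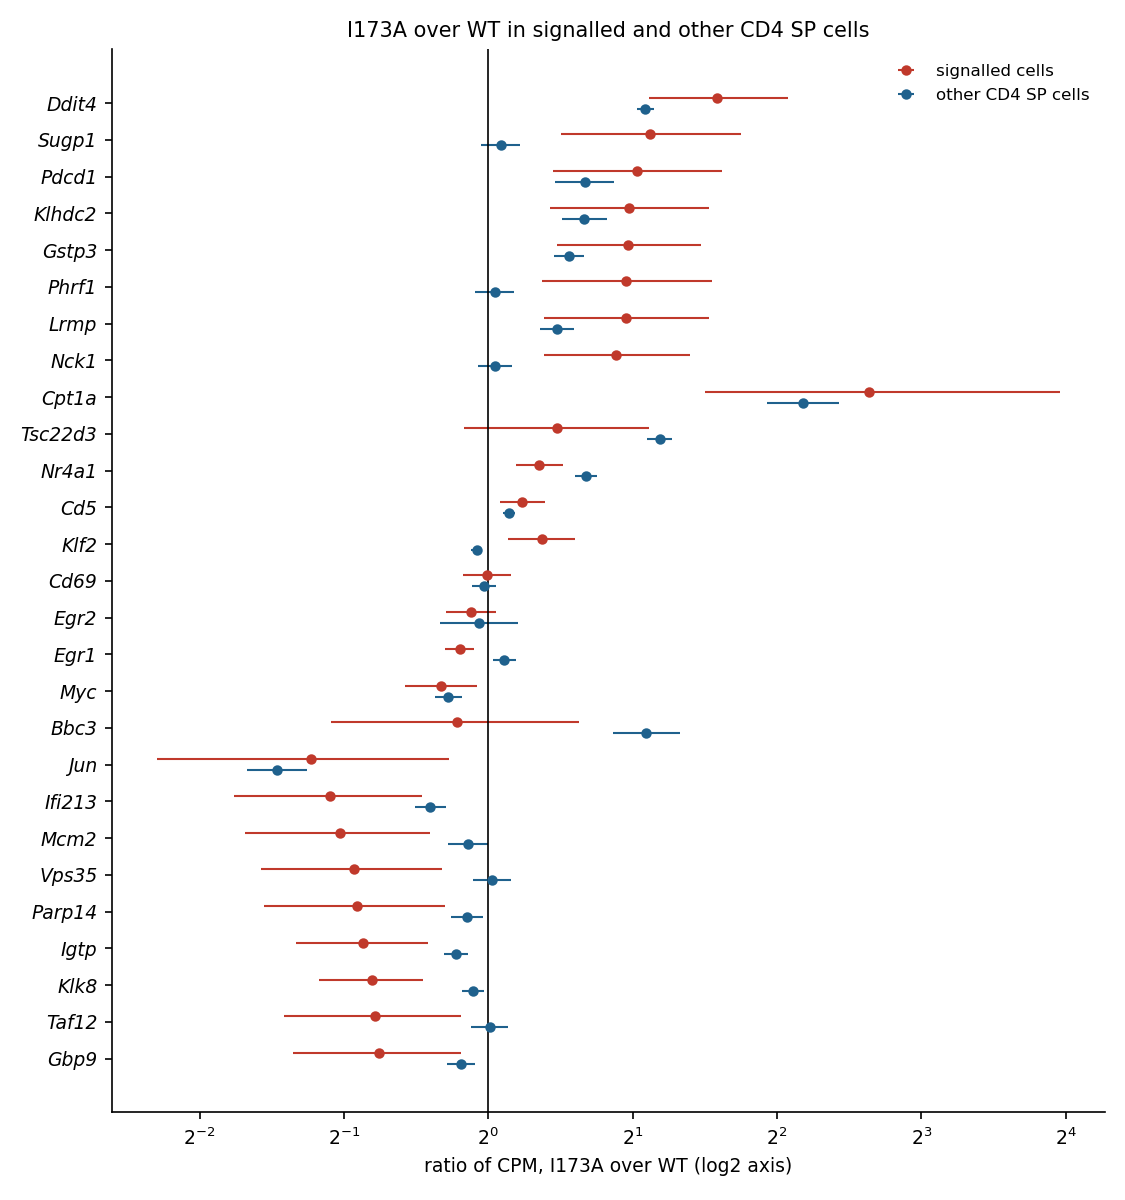
Ratio of CPM, I173A over WT, on a log2 axis for the genes named in the comparison of genotypes and 11 further genes, in signalled cells and in other CD4 SP cells, with exact conditional 95% intervals. Ddit4 (3.00 and 2.12) and Cpt1a (6.22 and 4.52) are right of 1 in both groups of cells, Jun and Ifi213 left of 1 in both, and Egr1 and Klf2 lie on opposite sides.

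Values of TCR signal reporters differed in direction between genes. Egr1 was 0.871 (0.814 to 0.932) in signalled cells, at 1655 CPM in I173A and 1899 CPM in WT, and 1.08 (1.02 to 1.14) in the other CD4 SP cells. Per cell, the I173A signalled cells had a median of 8 Egr1 UMIs with a highest of 46, and the WT signalled cells a median of 10 with a highest of 65, so the ranges overlapped widely. Cd69, at 613 CPM in I173A and 616 CPM in WT signalled cells, did not differ beyond counting error. Egr2 was at 550 CPM in I173A and 597 CPM in WT signalled cells, which is a description only, since Egr2 chose these cells. Fos was at 82.9 and 54.9 CPM (1.51, 1.06 to 2.15) and Jun at 14.4 and 33.8 CPM (0.427, 0.204 to 0.830). In the other cells Fos had a ratio of 0.912 (0.735 to 1.13) and Jun one of 0.363. One signalled cell held 11.2% of the Fos UMIs of the signalled cells. Myc was at 256 CPM in I173A and 321 CPM in WT signalled cells (0.797, 0.671 to 0.946), and 12 of 14 genes of the Myc and growth list were lower with a median log2 ratio of -0.11. The other CD4 SP cells were alike, with a Myc ratio of 0.825 (0.774 to 0.880) and 12 of 14 list genes lower, at a median of -0.10.

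Nr4a1 was at 716 CPM in I173A and 561 CPM in WT signalled cells, a ratio of 1.28 (1.14 to 1.43), and Cd5 at 753 and 640 CPM (1.18, 1.06 to 1.31). In the other CD4 SP cells the ratios were 1.60 (1.52 to 1.69) for Nr4a1, which is past 1.5-fold, and 1.10 (1.07 to 1.13) for Cd5. In cells split by agonist UMIs, which are part of the rule, the values differed and are given as a description. Among signalled cells with no agonist UMI (85 I173A and 111 WT cells), Nr4a1 was at 369 CPM in I173A and 508 CPM in WT, a ratio of 0.726 (0.610 to 0.862). Among those with 1 or 2 (41 and 50 cells), it was at 1456 CPM in I173A and 648 CPM in WT, a ratio of 2.25 (1.92 to 2.63). Among agonist-rich cells (37 of each) it was at 2419 CPM in I173A and 2450 CPM in WT, a ratio of 0.987 (0.889 to 1.10). Cd5 followed the same order with ratios of 0.953, 1.67 and 0.954. Among the cells with 1 or 2 agonist UMIs, at most 41 of the 387 Nr4a1 UMIs came from 1 cell in I173A, and 39 of 288 in WT. There the I173A cells had a median of 5679 UMIs and the WT cells 8039.5. The part of depth in these values was not tested. Ddit4 had ratios of 2.74 with no agonist UMI and 3.55 with 1 or 2, and Cpt1a 6.27 and 6.13.

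**Figure D5:**
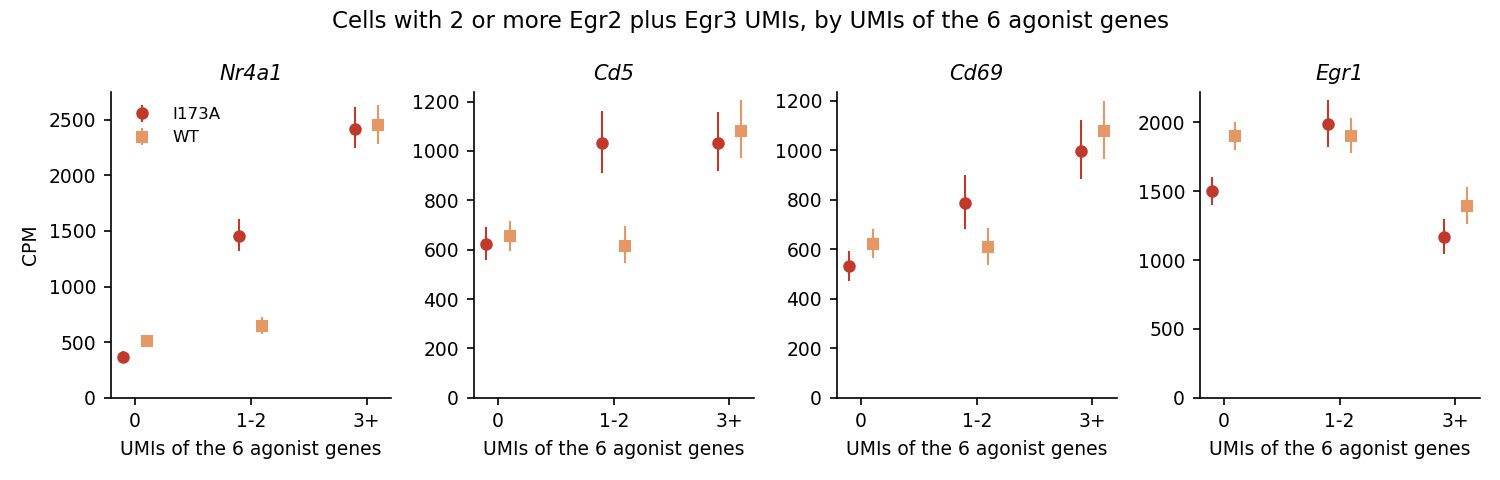
Levels in CPM of Nr4a1, Cd5, Cd69 and Egr1 in I173A and WT cells with 2 or more Egr2 and Egr3 UMIs, by their UMIs of the 6 agonist genes (0 and 1 to 2 are signalled cells, 3 or more are agonist-rich cells), with exact Poisson 95% intervals. Nr4a1 is lower in I173A with no agonist UMI (369 against 508 CPM), higher with 1 to 2 (1456 against 648 CPM) and about level with 3 or more.

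Genes of recently selected cells were higher in I173A in 11 of 12 cases among the signalled cells, 1 past 1.5-fold, with a median log2 ratio of 0.25, for example Ccr9 at 526 CPM in I173A and 416 CPM in WT (1.26, 1.11 to 1.44) and Itm2a at 3016 and 2525 CPM (1.19). In the other CD4 SP cells 9 of 10 were higher, with a median of 0.13. Klf2 had a ratio of 1.29 (1.10 to 1.52) in signalled and 0.946 (0.922 to 0.971) in other cells. In signalled cells it was 1.10 with no agonist UMI and 1.77 with 1 or 2. Across the maturation and egress list 11 of 21 genes were higher and 10 lower in I173A signalled cells, so Klf2 did not stand for its list. The TCR complex list had 11 genes higher and 10 lower, with a median of 0.00 and Cd3e at a ratio of 1.09 (1.01 to 1.17). Bcl2, Nab2, Id3, Gata3 and Zbtb7b had intervals that include 1, as had Cd4 at 390 CPM in I173A and 391 CPM in WT signalled cells.

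Egr1 and Nr4a1 were also higher in the CD8 SP and DP cells that met the rule. Egr1 was at 1174 CPM in the CD8 SP cells of the rule and 75.5 CPM in the other CD8 SP cells, a ratio of 15.6, and at 3394 and 77.5 CPM in DP cells, a ratio of 43.8. Nr4a1 was at 318 CPM in the CD8 SP cells of the rule and 37.4 CPM in the other CD8 SP cells, and had a ratio of 77.9 in DP cells. Other genes did not follow the CD4 SP values. Klf2 had a ratio of 0.871 (0.801 to 0.945) in CD8 SP and 4.67 (2.57 to 7.85) in DP cells, against 0.480 in CD4 SP cells. Among the DP cells of the rule, 33 in I173A and 26 in WT, the Klf2 ratio of I173A to WT was 0.0659 (0.00156 to 0.433). The DP value of Klf2 thus came mainly from a few WT cells and does not describe both genotypes. Gata3 had a ratio of 0.929 (0.614 to 1.35) in CD8 SP and 5.28 (4.22 to 6.54) in DP cells, and Ccr4 of 1.25 (0.494 to 2.62) and 9.87 (6.92 to 13.7). These gates are separate libraries and their differences were not tested.

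Both TCR chains were found in 267 of 287 signalled cells (93.0%, 89.4 to 95.7%) and in 4800 of 5486 other CD4 SP cells (87.5%, 86.6 to 88.4%). By genotype it was 94.4% in I173A and 91.9% in WT signalled cells. Cells with 2 or more α chains made up 11.1% of signalled and 13.0% of other cells, and cells with 2 or more β chains, which can be doublets, 7.67% and 5.20%. The invariant TRAV11-TRAJ18 chain of NKT cells was in 0 signalled and 82 other cells. A count of 0 among the 269 signalled cells with an α chain allows a share of up to 1.12%. The median TRAJ number was 26 in signalled and 27 in other cells. None of the 20 TRAV and TRBV segments carried by at least 10 signalled cells differed beyond counting error. TRBV31 was in 10.8% of signalled and 7.28% of other cells with a β chain (ratio 1.49, 0.990 to 2.16). TRBV5 was in 5.42% and 8.21% (0.660, 0.366 to 1.10).

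Of 279 clonotypes among the signalled cells none held 2 signalled cells. One was shared with another CD4 SP cell, both of them I173A, and its receptor joined TRAV13-2 to TRAJ52 on chromosome 14 and TRBV29 to TRBJ1-5 on chromosome 6. Its CDR3 sequences are shown because it was the 1 clonotype shared between a signalled and another cell among the contigs of the CD4 gate, the only ones searched.
TRA CDR3: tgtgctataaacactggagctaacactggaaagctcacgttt
TRB CDR3: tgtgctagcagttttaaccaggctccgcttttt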

How the data were processed

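RNA of single thymocytes was measured in 3 libraries (CD4 SP, CD8 SP and DP), with hashtag counts and TCR contigs. The authors deposited raw UMI counts per gene and barcode, aligned to mouse GRCm38 (mm10) with Cell Ranger 6.0.1 per the submitters' processing notes. The file headers of the matrices name software version 3.1.0 instead. Contigs of the CD4 gate were used; those of the other gates were not used here. No upstream doublet caller is named in these sources.

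From these counts, cells with 500 or more genes, at most 10% mitochondrial UMIs and 1 hashtag with 10 or more counts and 4 times each other hashtag were kept. Barcodes with several hashtags were left out, and hashtag 5, which has no genotype label, was kept out of the comparisons. UMIs were summed over the cells of a group and expressed as CPM. With 1 sample per genotype and gate, ratios carry exact conditional Poisson 95% intervals and shares exact Clopper-Pearson intervals, and UMIs of different cells were treated as independent. A difference was counted at 1.5-fold, among genes with a mean of at least 20 CPM (signalled against other cells) or 50 CPM (I173A against WT). To compare shares, UMIs were drawn at random to 3000 per cell in CD4 and 1500 over all gates (seed 17).

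Genes were named by rank, the 12 highest and 12 lowest against the other CD4 SP cells and 8 and 8 between genotypes, with at least 20 UMIs, an interval leaving out 1, and no signalled cell holding over 20% of the UMIs. TCR, immunoglobulin, mitochondrial, ribosomal and haemoglobin genes, genes named by clone and the 9 rule genes were left out of the naming. The counts of genes past 1.5-fold left out only the 9 rule genes. To these were added 29 genes always named and the 3 ends of each list. Any other gene in the text was chosen after its values were seen. The members, gene lists and comparisons were chosen with earlier results of these data known. Promoter windows are from RefSeq GRCm38.p6. The scripts used Python 3.11.15, numpy 2.4.6, scipy 1.17.1, pandas 2.3.3 and matplotlib 3.10.9, and the ratios and calls were checked on simulated counts. Alternatives varied the filters, thresholds, depth, weighting and cells compared.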

Additional observations from a re-analysis of the deposited data

Results flagged for a closer look

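Egr1 was lower in I173A than in WT among signalled cells (ratio 0.871) and higher among the other CD4 SP cells (ratio 1.08), a difference of -0.31 on the log2 scale. It is listed because the intervals of the 2 ratios lie on opposite sides of 1. The difference itself was not tested. With the rule at 3 or more Egr2 and Egr3 UMIs, the log2 ratio of I173A to WT in signalled cells was -0.06.

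Klf2 was higher in I173A among signalled cells (ratio 1.29) and lower among the other CD4 SP cells (ratio 0.946), a difference of 0.45 on the log2 scale, which was not tested either. With every cell weighted equally, the log2 ratio in signalled cells was 0.03.

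Cells with hashtag 5, which no label assigns to a genotype and which no comparison used, met the same rule in 153 of 2829 cases in the CD4 gate, a share of 5.41% (4.60 to 6.31%).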

How the results depend on the processing

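Of the alternatives to the main counts and shares, 46 values stayed within 1.5 times or within their interval and 19 did not. The number of genes at least 1.5-fold higher and lower in I173A signalled cells was 153 and 95 with 3 or more Egr2 and Egr3 UMIs, 131 and 74 with no agonist UMI, 170 and 127 with the rule applied after thinning, 309 and 224 at a mean of 20 CPM, and 8 and 7 at 100 CPM. Against the other CD4 SP cells it was 337 and 429 at 5 CPM, 67 and 36 at 50 CPM, and 236 and 222 in I173A cells alone; the number lower was 165 in WT cells alone and 163 with cells weighted equally. The CD8 SP ratio of shares was 0.773 after thinning to 1500 UMIs. The alternatives with fewer cells or a lower CPM minimum hold fewer UMIs per gene.

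With no agonist UMI, the log2 ratio of I173A to WT turned to -0.46 for Nr4a1 and -0.070 for Cd5. Against the other CD4 SP cells, Bcl2l11 turned to 0.070 without a limit on the agonist genes and Bbc3 to -0.15 in I173A cells alone; the causes were not tested. Of the other values of named genes, 899 stayed within their interval and 93 moved in size only, and of list medians 474 and 32. Signalled cells with no agonist UMI against the same other cells, an alternative chosen after seeing the data, gave 177 genes higher and 140 lower.

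No paired analysis was possible because each genotype is 1 sample per gate, and no replicate could be left out for the same reason. Depth limits genes under 20 CPM, for which 287 cells give few UMIs, and differences between 126 and 161 cells.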

Other observations

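Heat shock and dissociation genes, which can be induced while tissue is taken apart, were higher in signalled than in other CD4 SP cells in 9 of 10 cases, 2 past 1.5-fold, with a median log2 ratio of 0.21, against 0.01 over all genes. Of the S phase genes 9 of 14 were higher, none past 1.5-fold, with a median of 0.16. The Myc and growth list had 13 of 17 genes higher, 1 past 1.5-fold (Myc itself), with a median of 0.06. The regulatory T cell list had 3 genes higher and 5 lower, 4 of them past 1.5-fold, with a median of -0.39, set against other cells that include the Foxp3-positive ones. Icos, which encodes a costimulator, had a ratio of 1.97, and Gpr83, a receptor gene of regulatory T cells and of CD4 thymocytes, one of 2.16.

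Glucocorticoid-linked genes were higher in I173A in 4 of 4 cases among signalled cells, with a median log2 ratio of 0.40, and in 6 of 6 among the other CD4 SP cells, with a median of 0.43. Fatty acid oxidation, efflux and storage genes were higher in I173A in 5 of 6 cases in each group of cells, none past 1.5-fold, with medians of 0.14 and 0.14. Abcg1 was the lower gene in each group, and Cpt1a, under 50 CPM, was not among the 6. Over all genes, 1828 of 3449 were higher in I173A among signalled cells and 2032 of 3407 among the other CD4 SP cells, with medians of 0.01 and 0.02.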
